A study of Mus musculus with 6 samples.

Results

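Acute phase and complement genes were followed in colon tissue of C57BL/6 mice aged 6 to 8 weeks, each given ethanol by rectal injection and harvested 24 h later. The genes were listed by name: the serum amyloid A genes Saa1, Saa2 and Saa3, then Hp, Orm1, Cp, Lrg1, Lcn2, C3 and Cfb. All probe sets annotated to them were taken. Of the 10 genes, 9 had a probe set, 17 probe sets in all, out of 18194 genes and 45101 probe sets on the array. No probe set carried the symbol C3 in the annotation used, so C3 was not analysed here. The 6 arrays fell into 3 groups of 2, with WT (wild type) beside the knockouts GPR41 KO and GPR43 KO. GPR41, encoded by Ffar3, and GPR43, encoded by Ffar2, sense the short-chain fatty acids that gut bacteria make from fibre. Ethanol was given in all 3 groups and untreated colon was not analysed here. Each comparison therefore asks how colon after ethanol differs between groups of these genotype labels. Genotype goes with group throughout, so a missing receptor cannot be told apart from other differences between the groups, such as breeding or housing. The deleted part of each allele, the use of pooled animals and whether the arrays of a group came from separate animals are not given in the sources used here. The p-values thus rest on the spread between these arrays alone, which may be technical.

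Acute phase proteins are secreted in large amounts during infection and injury, classically by hepatocytes under interleukin 6, interleukin 1 and oncostatin M, which act through STAT3, NF-kB and C/EBP factors. Many of them are also made locally: gut epithelium makes serum amyloid A and lipocalin 2, and neutrophils carry haptoglobin and lipocalin 2 in their granules. Complement is a cascade of plasma proteins that marks microbes for uptake or lysis. Factor B, encoded by Cfb, is the protease of its alternative pathway.

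Signals are MAS5 intensities on a linear scale, scaled by the authors, and in the deposited values the mean of each array was 500 once 2% of probe sets at either end were left out. The array medians ranged from 80.9 to 96.8. Fold changes are log2 differences of group means after 18.4, the 20th percentile of all deposited signals, was added to each signal, and ± with a fold change is the standard error (SE) of the limma fit. A gene rose or fell where the adjusted p was under 0.05. Of several probe sets for a gene, the brightest over the 6 arrays stood for it in the fit, and 8 of the 9 genes passed the filter on weak genes (all but Orm1). A gene that is near background in the knockouts passed only through WT, so the 8 are those bright in at least some arrays. Hp was under 125.9, the signal level of the filter, in both GPR41 KO arrays. The count of falls among the 8 in GPR41 KO is thus partly set by the filter. With 2 arrays against 2, an exact permutation test cannot give a two-sided p below 0.333, and the number of arrays limits the precision of each value.

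Ffar2 checked the labels in part. Its brighter probe set gave 1194 and 1118 in WT and 1857 and 1933 with GPR41 KO. The library labelled GPR43 KO replicate 1 had 1598, against 189.0 for replicate 2 of that label. The other probe set gave 1142 and 76.3 in those last libraries, against 840.2 and 756.9 in WT. Low Ffar2 signal was thus absent from the library labelled GPR43 KO replicate 1, and the main results of that group are also given with that library left out. No probe set carried the symbol Ffar3, which leaves the label GPR41 KO unchecked.

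GPR41 KO colon had far lower signals of Lcn2, Saa3, Hp and Lrg1 than WT colon, and lower signals of Saa2 and Cfb. Of the 8 tested genes 6 fell, 0 rose and 2 (Saa1 and Cp) did not pass. Over all 10916 genes tested, 3.11% were called lower, 1.86% higher and 4.97% in either direction in this comparison. Leaving out GPR41 KO replicate 1 brought the count to 4 and leaving out WT replicate 1 to 7. The median log2 fold change was -2.66 over the 8 genes and 0.00 over all genes tested. The list was chosen with earlier results of these data known. Setting its counts and medians beside those of all genes therefore describes the list and is no test of it. In the group labelled GPR43 KO, 5 of the 8 fell (Lcn2, Hp, Saa3, Lrg1 and Cfb), 0 rose and 3 did not pass, where 2.41% of all genes were called lower, 1.55% higher and 3.96% either way. The median was -2.26 over the 8 and 0.03 over all genes. Without the library labelled GPR43 KO replicate 1, 4 of the 8 fell in that group, and without GPR43 KO replicate 2 also 4: in each case the call of Cfb was lost (adjusted p = 0.0586 and 0.0631 in limma). Both comparisons share the WT arrays. For the mean of both knockout groups against WT, 6 of the 8 fell, also when the library labelled GPR43 KO replicate 1 was left out, where 3.79% of all genes were called lower, 3.20% higher and 6.99% either way in the fit of all arrays.

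**Figure D1:**
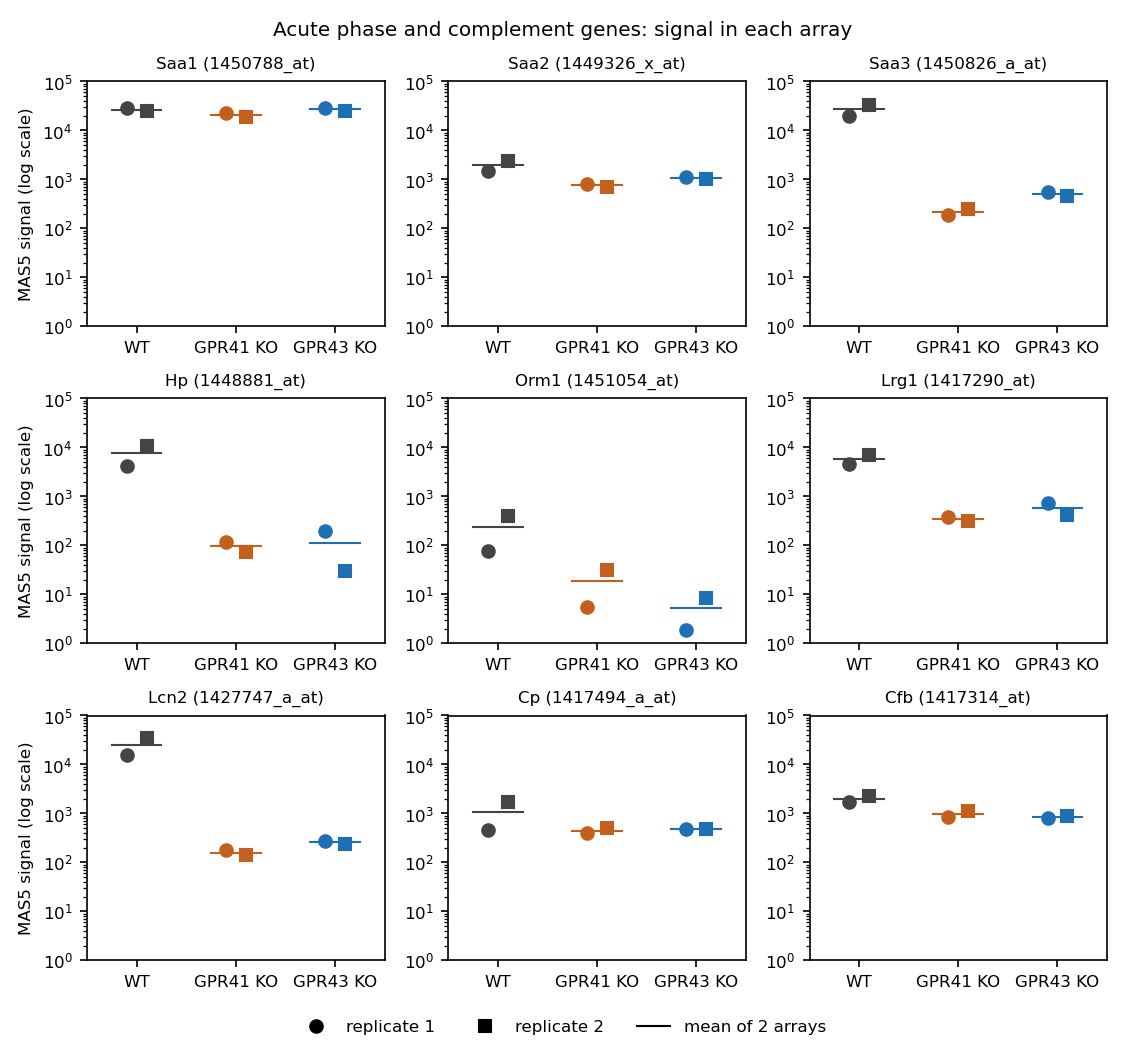
MAS5 signal of each gene in each array on a log axis, with the brightest probe set of the gene named above its panel; circles are replicate 1, squares replicate 2 and lines the mean of 2 arrays. Saa3, Lcn2, Hp and Lrg1 sit far lower in all 4 arrays labelled KO than in WT, while Saa1 stays between 18599 and 29062 in all 6 arrays.

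The serum amyloid A genes encode apolipoproteins of high-density lipoprotein that also bind retinol. These 3 genes lie close together on chromosome 7 (GRCm38.p6): Saa3 at 46711998 to 46719615, Saa1 at 46740497 to 46743181 and Saa2 at 46751833 to 46754313. Their span of 42.3 kb starts 15.9 Mb from the end of Ffar2. The 250 bases before a RefSeq transcript start of each gene are shown because Saa3 and its neighbours differed so much in these arrays. The starts of Saa1 and Saa3 used here lie inside the gene spans just given, which reach further upstream. The windows come from RefSeq on GRCm38.p6, at chr7:46742981-46743230 (minus strand), chr7:46751583-46751832 (plus strand) and chr7:46715677-46715926 (minus strand), and are written 5′ to 3′ along the gene. Capitals mark matches on either strand to the NF-kB letters (GGG, any 5 bases, CC) or to the C/EBP letters TTNNGNAA, and matches to both can adjoin. No window matched the STAT letters TTCNNNGAA.
Saa1: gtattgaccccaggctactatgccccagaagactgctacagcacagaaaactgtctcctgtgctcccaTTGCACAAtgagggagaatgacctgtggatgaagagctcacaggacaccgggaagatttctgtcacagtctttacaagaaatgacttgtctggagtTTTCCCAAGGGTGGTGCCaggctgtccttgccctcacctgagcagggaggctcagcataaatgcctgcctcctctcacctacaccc
Saa2: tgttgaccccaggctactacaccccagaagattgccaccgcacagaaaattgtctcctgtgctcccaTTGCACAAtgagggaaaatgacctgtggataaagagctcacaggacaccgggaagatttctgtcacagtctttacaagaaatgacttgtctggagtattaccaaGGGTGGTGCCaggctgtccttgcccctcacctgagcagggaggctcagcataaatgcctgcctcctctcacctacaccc
Saa3: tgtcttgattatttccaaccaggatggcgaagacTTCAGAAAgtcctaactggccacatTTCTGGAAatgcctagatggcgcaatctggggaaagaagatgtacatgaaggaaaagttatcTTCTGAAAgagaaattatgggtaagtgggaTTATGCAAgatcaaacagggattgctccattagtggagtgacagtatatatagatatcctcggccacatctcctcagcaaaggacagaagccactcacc
The Saa1 and Saa2 windows were 94.8% identical over the alignment, and Saa1 and Saa3 52.5%, with gaps allowed and no comparison with unrelated windows made. Saa1 and Saa2 shared the match GGGTGGTGCC to the NF-kB letters, which begins at -78 and -79 from the transcript start, and a C/EBP match TTGCACAA at -182 and -183. In Saa1 a further C/EBP match, TTTCCCAA, ends where its NF-kB match begins. Saa3 had 4 matches to the C/EBP letters, at -216, -191, -129 and -99, and none to the NF-kB letters. Such short letters are common: 45.8% of 32851 RefSeq promoter windows of this length hold the NF-kB letters, 36.8% hold TTNNGNAA and 7.02% hold TTCNNNGAA. A match describes letters only and is no evidence of binding.

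Saa3 gave 19930 and 33708 in WT and 185.6 and 250.7 with GPR41 KO. The library labelled GPR43 KO replicate 1 held 545.8, against 451.6 for replicate 2 of that label. No array labelled KO came near a WT array, and its mean was 0.813% of the WT mean for GPR41 KO and 1.86% for GPR43 KO. The log2 fold change was -6.79 ± 0.25 (n = 2 per group, limma adjusted p = 9.49e-06) in GPR41 KO. In GPR43 KO it was -5.65 ± 0.25 (adjusted p = 2.29e-05), and -5.79 without the library labelled GPR43 KO replicate 1.

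Saa2 gave 1488 and 2416 in WT, 801.4 and 708.5 with GPR41 KO, and 1123 and 1016 in the arrays labelled GPR43 KO. All 4 arrays labelled KO lay below both WT arrays, but at 38.7% (GPR41 KO) and 54.8% (GPR43 KO) of the WT mean. It fell by 1.31 ± 0.21 on the log2 scale in GPR41 KO (limma adjusted p = 0.0103). Leaving out GPR41 KO replicate 1 ended that call (adjusted p = 0.0538), as did leaving out GPR41 KO replicate 2 (0.074). In GPR43 KO its log2 fold change was -0.82 ± 0.21 (adjusted p = 0.0751), and it passed without WT replicate 1 (-1.16, adjusted p = 0.00408) and after median centring (adjusted p = 0.0446). It was at -0.89 with the library labelled GPR43 KO replicate 1 left out.

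Saa1 was bright in every array. Its brighter probe set, 1450788_at, gave 28487 and 25021 in WT, 22248 and 18599 with GPR41 KO, and 29062 and 25018 in the arrays labelled GPR43 KO. Both GPR41 KO arrays lay below WT, while WT and GPR43 KO overlapped. The log2 fold change was -0.39 ± 0.15 in GPR41 KO (limma adjusted p = 0.195; 95% interval of the fit -0.73 to -0.051). In GPR43 KO it was 0.01 ± 0.15 (adjusted p = 0.972; 95% interval -0.33 to 0.36), with the sign turned after quantile normalization (-0.097) or without the library labelled GPR43 KO replicate 1 (-0.094). Both intervals lie far above the -6.79 and -5.65 of Saa3.

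The second probe set filed under Saa1, 1419075_s_at, gave 21176 and 17885 in WT, 12643 and 9270 with GPR41 KO, and 14717 and 12671 in the arrays labelled GPR43 KO. All 4 arrays labelled KO lay below both WT arrays, at 56.1% and 70.1% of the WT mean. The accession given for this probe set is that of Saa2 in RefSeq, its suffix marks probes shared between transcripts, and RefSeq lists Saa1 and Saa2 as older names of each other. Which of these near-identical genes it reads is therefore uncertain, and the same holds for the Saa2 probe set, whose suffix marks possible cross-hybridisation. Fitted with all 45101 probe sets, 1419075_s_at had a log2 fold change of -0.85 ± 0.18 in GPR41 KO (limma adjusted p = 0.0844) and -0.51 ± 0.18 for the GPR43 KO label (adjusted p = 0.33).

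**Figure D2:**
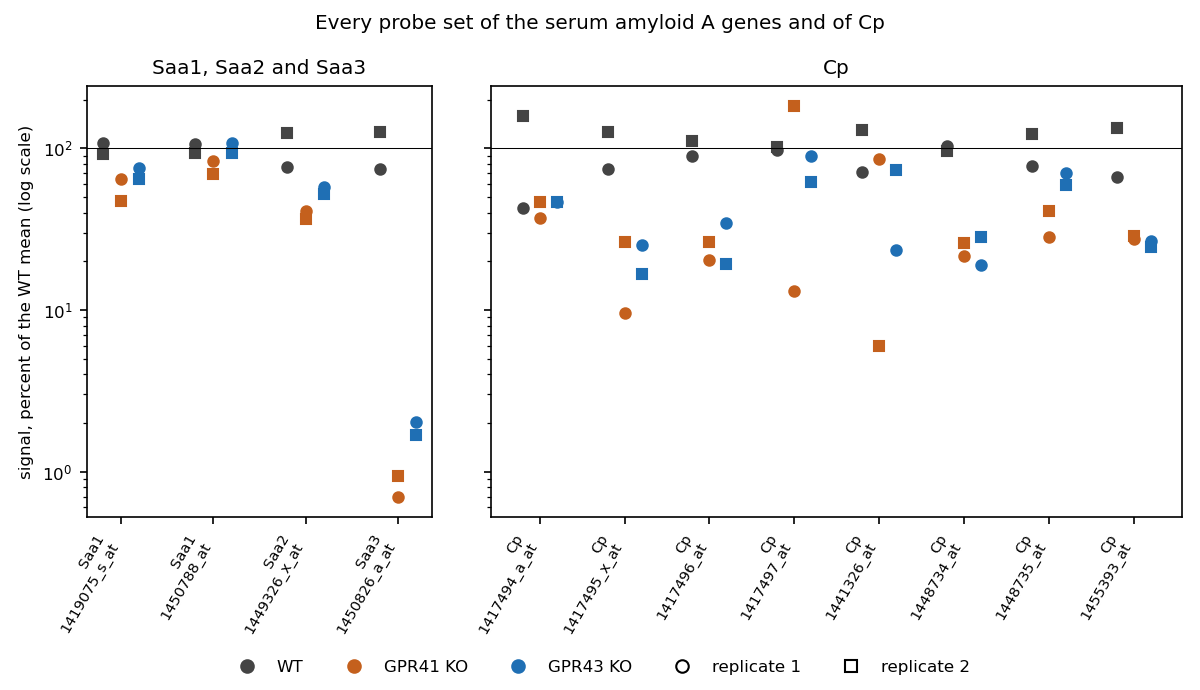
Signal in each array as percent of the WT mean on a log axis, for the 4 probe sets of the serum amyloid A genes (left) and the 8 of Cp (right); colours are the groups, circles replicate 1 and squares replicate 2. Saa3 lies at 0.813% and 1.86% of WT on average in the knockouts against 38.7% or more for the Saa1 and Saa2 probe sets, and the Cp probe sets spread widely.

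Hp encodes haptoglobin, which captures free haemoglobin. It lies on chromosome 8 at 109575128 to 109579172. Its signals were 4139 and 10957 in WT and 116.6 and 74.9 with GPR41 KO. The library labelled GPR43 KO replicate 1 held 197.3, against 30.3 for replicate 2 of that label. The arrays labelled KO held at most 197.3, while the WT arrays differed 2.65 times from each other. The log2 fold change was -5.91 ± 0.65 in GPR41 KO (limma adjusted p = 0.00183) and -6.04 ± 0.65 for the GPR43 KO label (adjusted p = 0.00201). It was -7.12 in GPR43 KO without the library labelled GPR43 KO replicate 1, against -4.97 without GPR43 KO replicate 2.

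Orm1 encodes alpha-1-acid glycoprotein, a plasma carrier of lipophilic compounds, on chromosome 4 at 63344556 to 63348163. Its only probe set gave 78.4 and 396.4 in WT, 5.63 and 31.6 with GPR41 KO, and 1.84 and 8.57 in the arrays labelled GPR43 KO. Every array labelled KO lay below both WT arrays, but the knockout signals were at or near 18.4, the level below which the lowest 20% of all signals fall, and the WT arrays differed 5.05 times. It was below the filter. Without the filter the fit put it at -2.53 ± 0.69 in GPR41 KO (limma adjusted p = 0.115) and -3.10 ± 0.69 for the GPR43 KO label (adjusted p = 0.0643), so neither passed, and no fit without the filter left out an array. For the mean of both groups it was -2.82 ± 0.59 (adjusted p = 0.0383), and 0.067 with every probe set in the fit.

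Cp encodes ceruloplasmin, a copper enzyme that oxidises iron, on chromosome 3 at 19956933 to 20009750. It had 8 probe sets, which disagreed. The brightest, 1417494_a_at, gave 453.6 and 1675 in WT, 394.4 and 495.6 with GPR41 KO, and 492.9 and 492.0 in the arrays labelled GPR43 KO. WT replicate 2 alone stood apart, and WT replicate 1 lay among the knockouts. This probe set did not pass, with -0.96 ± 0.47 in GPR41 KO (limma adjusted p = 0.313) and -0.81 ± 0.47 for the GPR43 KO label (adjusted p = 0.388). Without WT replicate 1 it was at -1.88 and -1.73 and passed (adjusted p = 0.000617 and 0.00117), and without WT replicate 2 at -0.035 and 0.11. With the library labelled GPR43 KO replicate 1 left out, it stayed at -0.81 in GPR43 KO (adjusted p = 0.576).

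Other Cp probe sets separated the groups. The probe set 1417496_at gave 434.8 and 540.6 in WT, 98.9 and 127.9 with GPR41 KO, and 168.9 and 94.0 in the arrays labelled GPR43 KO. The probe set 1448734_at gave 305.8 and 283.3 in WT against 55.9 to 82.9 in the 4 arrays labelled KO, and 1455393_at gave 357.6 and 714.2 against 131.3 to 154.7. The probe set 1417495_x_at gave 415.1 and 703.9 in WT against 53.7 to 146.9 in those 4 arrays, and 1448735_at gave 83.9 and 132.8 against 30.8 to 76.3. In 5 of the 8 Cp probe sets both GPR41 KO arrays lay below both WT arrays, and in 6 both arrays labelled GPR43 KO did. Over all 45101 probe sets this was so in 22.0% for GPR41 KO and in 19.2% for GPR43 KO. With every probe set in the fit, 3 of the 8 fell in GPR41 KO (where 0.745% of all probe sets were called lower) and 1 in GPR43 KO (0.552%): 1417496_at had -1.94 ± 0.32 (limma adjusted p = 0.0271) and -1.79 ± 0.32 (0.0479). The mean over the 8 probe sets gave Cp a log2 fold change of -1.36 ± 0.28 in GPR41 KO, which passed (adjusted p = 0.0401), and -1.20 ± 0.28 in GPR43 KO, which did not (adjusted p = 0.0699). The 2 dimmest, 1417497_at and 1441326_at, gave at most 81.3 in any array, and only 1417497_at had both arrays labelled GPR43 KO below WT (39.5 and 27.6 against 43.2 and 45.2).

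Lrg1 encodes leucine-rich alpha-2-glycoprotein, a secreted protein that modifies TGF-beta signalling in vessels, on chromosome 17 at 56119678 to 56121946. It gave 4652 and 7107 in WT and 375.1 and 310.0 with GPR41 KO. The library labelled GPR43 KO replicate 1 held 747.3, against 412.6 for replicate 2 of that label. All arrays labelled KO lay well below WT, at 5.83% and 9.86% of the WT mean. The log2 fold change was -4.00 ± 0.28 in GPR41 KO (limma adjusted p = 0.000373) and -3.33 ± 0.28 for the GPR43 KO label (adjusted p = 0.00122), with -3.74 in GPR43 KO without the library labelled GPR43 KO replicate 1.

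Lcn2 encodes lipocalin 2, which binds bacterial siderophores and so withholds iron, on chromosome 2 at 32384637 to 32387739. It gave 15634 and 34828 in WT, 175.4 and 142.9 with GPR41 KO, and 279.5 and 240.8 in the arrays labelled GPR43 KO. Its WT mean was 159 times that of GPR41 KO and 97.0 times that of GPR43 KO. The log2 fold change was -7.05 ± 0.32 in GPR41 KO (limma adjusted p = 1.72e-05) and -6.39 ± 0.32 for the GPR43 KO label (adjusted p = 3.35e-05), with -6.49 there when the library labelled GPR43 KO replicate 1 was left out. The 250 bases before its transcript start, at chr2:32387740-32387989 (minus strand, RefSeq, GRCm38.p6), are shown beside those of the serum amyloid A genes because it fell as far as Saa3, with capitals as before.
Lcn2: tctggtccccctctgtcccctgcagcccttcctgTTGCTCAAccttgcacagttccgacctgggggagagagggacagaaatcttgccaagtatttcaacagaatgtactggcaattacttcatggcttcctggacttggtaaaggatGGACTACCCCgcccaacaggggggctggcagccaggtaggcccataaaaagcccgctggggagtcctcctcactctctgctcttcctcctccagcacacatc
It held the NF-kB letters on the opposite strand as GGACTACCCC at -102 and the C/EBP letters as TTGCTCAA at -216. It also held the wider STAT letters (TTC, any 4 bases, GAA), found in 5.85% of all windows, as TTCAACAGAA at -156, left in lower case. Among the serum amyloid A windows and that of Lrg1 none held the wider letters.

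Cfb gave 1711 and 2259 in WT, 841.9 and 1132 with GPR41 KO, and 823.5 and 879.0 in the arrays labelled GPR43 KO. It lies on chromosome 17 at 34856374 to 34862514. All arrays labelled KO lay below both WT arrays, at 49.7% and 42.9% of the WT mean. The log2 fold change was -1.0 ± 0.19 in GPR41 KO (limma adjusted p = 0.0188) and -1.19 ± 0.19 for the GPR43 KO label (adjusted p = 0.0109), and -1.15 there without the library labelled GPR43 KO replicate 1, where its call was lost. In GPR41 KO the call was lost without WT replicate 2 (adjusted p = 0.0889) or GPR41 KO replicate 1 (0.132) and without the intensity trend in limma (0.0574).

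**Figure D3:**
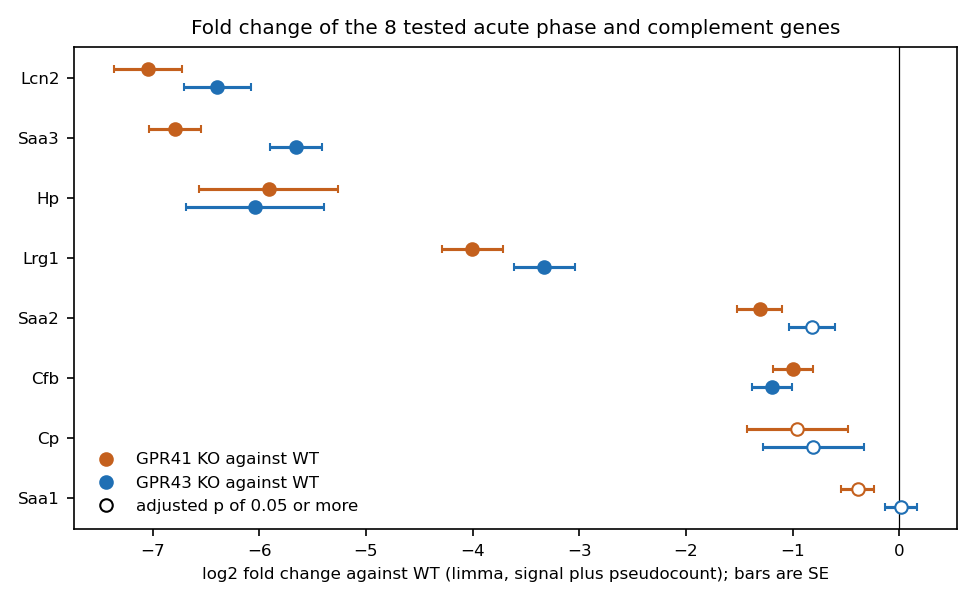
Log2 fold change against WT of the 8 tested genes, with GPR41 KO and GPR43 KO in separate colours; bars are the SE of the limma fit over 2 arrays per group and open points did not pass. Lcn2, Saa3 and Hp lie between -7.05 and -5.65, Lrg1 between -4.00 and -3.33, and the other 4 genes between -1.31 and 0.01.

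The falls in GPR41 KO ran in the order Lcn2, Saa3, Hp, Lrg1, Saa2, Cfb, Cp and Saa1. Neighbours in that order differed by less than the sum of their standard errors, except for the steps from Hp to Lrg1 and from Lrg1 to Saa2. The largest folds depend on the pseudocount, since the knockout signals of Hp, Lcn2 and Saa3 are weak: over the pseudocounts and the floor tried, and the other settings with all arrays, Hp in GPR41 KO ranged from -6.17 to -5.34, Lcn2 from -7.20 to -6.66 and Saa3 from -6.91 to -6.49. Each of Lcn2, Saa3, Hp and Lrg1 passed in both comparisons whichever array was left out. WT replicate 2 lay above WT replicate 1 in 14 of the 17 probe sets, where 51.4% of all probe sets did so. The 3 exceptions were both probe sets filed under Saa1 and the Cp probe set 1448734_at.

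Between the knockout groups no difference passed. Of the 8 genes 0 were called in GPR43 KO against GPR41 KO with limma (0.00% of all genes tested), and 4 had an unadjusted p under 0.05 (Saa1, Saa2, Saa3 and Lrg1), where 5.46% of all genes did. Saa3 had the largest difference, 1.14 ± 0.25 higher on the log2 scale in GPR43 KO (limma adjusted p = 0.766), and 1.0 without the library labelled GPR43 KO replicate 1. Both arrays labelled GPR43 KO lay above both GPR41 KO arrays in 7 of the 17 probe sets, where 20.8% of all probe sets did. The log2 difference was above 0 for 6 of the 8 genes, and for 56.3% of all genes tested. The adjusted p-values do not show that the groups are alike: the 95% interval for Saa3 ran from 0.58 to 1.70 and that for Hp from -1.61 to 1.35.

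Markers of neutrophils, of macrophages and monocytes, and of colonocytes were read beside these genes. Of 21 listed neutrophil markers 15 had a probe set, and their summed signal ranged from 76742 to 139598 in WT, from 1168 to 1194 in GPR41 KO and from 1136 to 3386 in GPR43 KO. None was at 0. S100a8 and S100a9 had the largest signals of that sum in every array. Of the 8 tested, 6 were under 125.9, the signal level of the filter, in both GPR41 KO arrays and passed the filter through WT, so a count of falls over them is partly set by the filter. S100a8 and S100a9, which were above that level in every array, were at -7.07 and -7.35 in GPR41 KO (limma adjusted p = 0.000143 and 0.000587) and at -5.89 and -6.38 in GPR43 KO (adjusted p = 0.000667 and 0.00136). Without the library labelled GPR43 KO replicate 1 they were at -6.64 and -7.47 in that group. For 15 of 18 macrophage and monocyte markers the sum ranged from 44110 to 64182 in WT, from 16150 to 21290 in GPR41 KO and from 22726 to 23251 in GPR43 KO. Lyz1 and Lyz2 had the largest signals of that sum in every array, and the suffix of the Lyz1 probe set marks possible cross-hybridisation. With the mean over its probe sets Lyz1 was at -0.86 in GPR41 KO and passed (limma adjusted p = 0.031). In GPR43 KO it was then at -0.42 and did not pass (adjusted p = 0.266). Of the 13 tested, 8 fell in each comparison, and fewer in GPR43 KO when either array of that label was left out. These counts are partly set by the filter, since Itgam was under 125.9 in all 4 arrays labelled KO and Fcgr1 in both GPR41 KO arrays. The 5 not past the threshold were Csf1r (-0.55 and -0.17), Adgre1 (-0.91 and -0.45), Mrc1 (-0.20 and -0.13), Ccr2 (-1.10 and -0.75) and Cx3cr1 (0.06 and 0.32). The part of either cell type in the falls of Lcn2, Hp and the other genes was not tested, and in bulk tissue fewer cells of a type and less RNA per cell cannot be told apart. Colonocyte markers, the check of the tissue label, had all 16 members tested, with sums from 305108 to 336205 in WT and from 399169 to 464214 in the arrays labelled KO. In GPR41 KO 3 of them rose and in GPR43 KO 2. Fewer were called when any 1 of the 4 arrays labelled KO was left out, and more in both comparisons without WT replicate 1. Without WT replicate 2 fewer were called in GPR41 KO and more in GPR43 KO.

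Of 17 hepatocyte markers 16 had a probe set, with sums from 5047 to 6289 in WT, from 6911 to 7540 in GPR41 KO and from 7734 to 8608 in GPR43 KO. Of these, 8 stayed under 125.9 in every array, among them Alb, albumin, with 6.87 to 104.4, Ahsg with 4.67 to 7.31 and Fgb with 2.00 to 8.76. Others were well above it: Hpd, an enzyme of tyrosine breakdown, gave 2496 to 4223, Apob 523.5 to 990.9 and Tat 360.0 to 689.5. Of the 6 tested, 1 rose in each comparison and 0 fell: Cps1, an enzyme of the urea cycle, in GPR41 KO (1.08, limma adjusted p = 0.0221) and Ttr, transthyretin, in GPR43 KO (1.76, adjusted p = 0.0405), and neither call held when WT replicate 2 or either GPR41 KO array was left out. Goblet cell markers had 1 of 10 higher in GPR41 KO (Agr2) and 2 in GPR43 KO (Agr2 and Spink4), and these calls were lost in all fits with 1 array left out but that without WT replicate 1. Of 7 adipocyte markers tested, Car3 rose (2.83 and 2.09) and Fabp4 fell (-0.89 and -1.05) in both comparisons, and Pparg rose in GPR41 KO (0.67). Of 9 endothelial markers Pecam1 fell in GPR41 KO (-0.87, adjusted p = 0.0239), and of 12 fibroblast markers 0 were called in either comparison with limma. Of those 12, 4 and 2 had an unadjusted p under 0.05 in limma, as did 2132 and 2182 of all 10916 genes tested. Among Car3, Fabp4, Pparg and Pecam1 only the calls of Car3 held in every fit with 1 array left out, and with the mean over its probe sets that in GPR43 KO did not pass (0.90, adjusted p = 0.136). The part of these cells in the results was not tested.

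Other acute phase genes were read from a list of 28, of which 23 had a probe set and 5 passed the filter. All 5 fell in both comparisons, with medians of -2.08 and -2.10. Serpina3n, a serine protease inhibitor, gave 4805 and 7508 in WT, 575.3 and 639.3 with GPR41 KO, and 840.6 and 977.2 in the arrays labelled GPR43 KO, a log2 fold change of -3.27 ± 0.20 (limma adjusted p = 0.000144) and -2.70 ± 0.20 (adjusted p = 0.00071). The metallothioneins Mt2 (-2.73 and -2.21) and Mt1 (-1.63 and -1.33), which bind zinc and copper, fell. So did Lbp, which binds bacterial lipopolysaccharide (-1.64 and -1.38), and the metalloreductase Steap4 (-2.08 and -2.10). With the mean over its probe sets Lbp passed in neither comparison (-1.01 and -0.73, limma adjusted p = 0.0679 and 0.181). By that rule Mt1 (-1.22, adjusted p = 0.0651) and Steap4 (-1.62, adjusted p = 0.0621) did not pass in GPR43 KO. Serpina3n and Mt2 passed in both comparisons whichever array was left out, and the other 3 did not: without GPR41 KO replicate 2 the adjusted p in GPR41 KO was 0.0826 for Mt1, 0.0562 for Lbp and 0.188 for Steap4. Without the library labelled GPR43 KO replicate 1, 3 of the 5 passed in GPR43 KO, and without GPR43 KO replicate 2 only Serpina3n and Mt2. In GPR41 KO the count was 3 when GPR41 KO replicate 1 was left out and 2 for GPR41 KO replicate 2. With the library labelled GPR43 KO replicate 1 left out, Serpina3n was at -2.60 and Mt2 at -2.25 in that group. Ptx3, a pentraxin made at sites of inflammation, was below the filter with 938.5 and 1440 in WT and 11.1 to 32.5 in the arrays labelled KO. Orm2, a close paralog of Orm1, gave 86.1 and 170.7 in WT and 1.54 to 22.6 in the arrays labelled KO.

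Of 26 other complement components 21 had a probe set and 9 were tested, with medians of -0.33 in GPR41 KO and -0.40 in GPR43 KO. In GPR41 KO 3 fell. C1ra, a protease of the classical pathway, had a log2 fold change of -1.66 ± 0.17 (limma adjusted p = 0.00114). Cfp, properdin, which stabilises the alternative convertase, was at -1.88 ± 0.25 (adjusted p = 0.00409), and the protease C1s1 at -0.90 ± 0.13 (adjusted p = 0.00644, and 0.0593 without GPR41 KO replicate 1). In GPR43 KO C1ra (-1.08) and Cfp (-1.26) fell, but Cfp not with the mean over its probe sets (-0.71, limma adjusted p = 0.189). Both calls were lost when the library labelled GPR43 KO replicate 1 was left out (adjusted p = 0.0562 and 0.142) or GPR43 KO replicate 2 was (0.07 and 0.0655), and that of Cfp without WT replicate 2 (0.132). The subunits of C1q, made by macrophages, did not pass, with C1qa at -0.32 and -0.08, C1qb at -0.63 and -0.42, and C1qc at -0.33 and 0.00. C2, the protease of the classical convertase and the neighbour in function of Cfb, was at -0.06 and -0.40 and did not pass. Members of the terminal pathway such as C6, C8a, C8b, C9 and Hc stayed under 125.9 in every array, and C4b and Cfd had no probe set in the annotation used.

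Of 19 regulators and receptors of complement 17 had a probe set and 12 were tested. With GPR41 KO 7 fell, 0 rose and 5 were not past the threshold (median -0.87), and with GPR43 KO 3 fell and 9 were not past it (median -0.57). The GPR41 KO count was 3 when GPR41 KO replicate 1 was left out and 4 for GPR41 KO replicate 2. The GPR43 KO count was 2 without the library labelled GPR43 KO replicate 1, against 1 without GPR43 KO replicate 2, and 2 without WT replicate 2. The receptor of C5a, C5ar1, gave 582.2 and 1060 in WT, 75.7 and 110.3 with GPR41 KO, and 215.1 and 111.9 in the arrays labelled GPR43 KO. The fit put it at -2.87 ± 0.37 (limma adjusted p = 0.00354) and -2.21 ± 0.37 (adjusted p = 0.0151, and 0.0944 without GPR43 KO replicate 2 or 0.0732 without WT replicate 2). Complement receptor 3 is built of Itgam, at -2.46 and -2.07, and Itgb2, at -2.60 and -2.33, and both fell in both comparisons. In GPR43 KO these calls were lost without GPR43 KO replicate 2 or WT replicate 2 (Itgam, adjusted p = 0.0746 and 0.0762) and without the library labelled GPR43 KO replicate 1 (Itgb2, 0.0502). These 3 are carried by neutrophils and macrophages. Itgam was under 125.9 in all 4 arrays labelled KO and C5ar1 in both GPR41 KO arrays. They passed the filter through WT, so the counts of falls are partly set by it. The receptor of C3a, C3ar1, fell in GPR41 KO (-1.19 ± 0.24, adjusted p = 0.0239) but not whichever array was left out (0.147 when GPR41 KO replicate 1 was left out, 0.0723 for GPR41 KO replicate 2 and 0.0959 for WT replicate 2). Clu, clusterin, which blocks the terminal complex, fell in GPR41 KO (-1.69, adjusted p = 0.00938, and 0.0787 without GPR41 KO replicate 1) and was at -1.0 in GPR43 KO (adjusted p = 0.0834). The other calls in GPR41 KO were Cd55 (-1.07, adjusted p = 0.0341) and Serping1 (-0.67, adjusted p = 0.0454). The call of Cd55 was lost when WT replicate 1 (0.0628) or either GPR41 KO array (0.202 and 0.0882) was left out and with the mean over its probe sets (-0.43, adjusted p = 0.472). That of Serping1 was lost in 5 of the 6 fits with 1 array left out (0.0724 to 0.259) and after median centring (0.0986). The surface inhibitor Cr1l was at -0.04 and 0.03 and did not pass.

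Inducers of acute phase genes were read from a list of 32 cytokines, receptors and transcription factors, of which 28 had a probe set and 23 were tested. With GPR41 KO 7 fell and 16 were not past the threshold (median -0.64), and with GPR43 KO 6 fell and 17 were not past it (median -0.66), with 7 called when the library labelled GPR43 KO replicate 1 was left out and 3 when GPR43 KO replicate 2 was. Leaving out WT replicate 1 gave 13 and 10 in the respective comparisons. Il1b gave 9023 and 17120 in WT and 166.5 to 251.9 in the arrays labelled KO, a log2 fold change of -5.99 ± 0.27 and -5.68 ± 0.27 (limma adjusted p = 1.72e-05 and 3.35e-05), with -5.84 in GPR43 KO when the library labelled GPR43 KO replicate 1 was left out. Il22 had no probe set in the annotation used. Il6 was below the filter, with 606.6 and 1529 in WT, 24.9 and 1.25 with GPR41 KO, and 1.05 and 3.09 in the arrays labelled GPR43 KO. Osm, oncostatin M, was at -3.75 ± 0.51 in GPR41 KO and fell (limma adjusted p = 0.00443). It was under 125.9 in both GPR41 KO arrays and passed the filter through WT, so that call is partly set by the filter. The receptor Osmr fell too, at -1.51 ± 0.26 (adjusted p = 0.0124). The Osmr call was lost without WT replicate 2 or either GPR41 KO array, and with the mean over its probe sets (-0.86, adjusted p = 0.115). In GPR43 KO Osm was at -2.37 ± 0.51 (adjusted p = 0.0397). That call was lost without WT replicate 2, the library labelled GPR43 KO replicate 1 or GPR43 KO replicate 2. Osmr at -1.09 did not pass in GPR43 KO in the fit of all arrays (adjusted p = 0.0559). It was at -1.46 there without the library labelled GPR43 KO replicate 1.

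The transcription factors of the list differed from each other. Cebpb, a C/EBP factor of the acute phase, gave 5088 and 7538 in WT, 1322 and 926.6 with GPR41 KO, and 1250 and 1205 in the arrays labelled GPR43 KO. The fit put it at -2.46 ± 0.21 with GPR41 KO (limma adjusted p = 0.000745) and at -2.32 ± 0.21 with GPR43 KO (adjusted p = 0.00137). Cebpd was at -1.90 and -1.52 and fell in both, with the GPR43 KO call lost without GPR43 KO replicate 2 (adjusted p = 0.0553), while Cebpa, the C/EBP factor of resting tissue, was at 0.0022 and -0.0032 and did not pass. Socs3, the feedback inhibitor induced by STAT3, was at -3.11 ± 0.33 and -2.63 ± 0.33 and fell in both (adjusted p = 0.00166 and 0.00436). With the library labelled GPR43 KO replicate 1 left out, Cebpb was at -2.34 and Socs3 at -2.97 in GPR43 KO. Stat3 itself was at -0.50 and -0.69 (adjusted p = 0.129 and 0.0522), Rela, a subunit of NF-kB, at -0.24 and -0.18, and Nfkbiz at -0.99 and -0.94 (adjusted p = 0.053 and 0.0684). None of these passed in the fit of all arrays. Without the library labelled GPR43 KO replicate 1, Stat3 was at -0.87, Rela at -0.19 and Nfkbiz at -1.31 in that group. The interleukin 22 receptor Il22ra1 was at -0.15 and -0.36 and did not pass.

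Of 18 receptors and partners of the proteins 14 were tested, with 3 lower in each comparison and 11 not past the threshold (medians -0.53 and -0.20). Fpr2, a formyl peptide receptor that also binds serum amyloid A, gave 1070 and 2412 in WT, 69.6 and 121.7 with GPR41 KO, and 12.1 and 49.6 in the arrays labelled GPR43 KO, a log2 fold change of -3.87 ± 0.48 and -5.16 ± 0.48 (limma adjusted p = 0.00307 and 0.00139). Fpr2 was under 125.9 in all 4 arrays labelled KO and passed the filter through WT, so the counts of falls are partly set by it. Mmp9, the gelatinase that forms a complex with lipocalin 2, was at -2.73 and -2.52. Hmox1, which degrades haem, was at -2.66 and -3.03, with the GPR41 KO call lost without GPR41 KO replicate 1 (limma adjusted p = 0.0813), GPR41 KO replicate 2 (0.0872) or WT replicate 2 (0.0556). With the library labelled GPR43 KO replicate 1 left out, Fpr2 was at -4.58, Mmp9 at -2.63 and Hmox1 at -3.81 in that group. The scavenger receptor Cd163, which takes up haptoglobin bound to haemoglobin, was below the filter, with 231.0 and 239.6 in WT and 38.3 to 80.6 in the arrays labelled KO. The lipocalin 2 receptor Slc22a17 was at -0.71 and -0.08 and did not pass.

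**Figure D4:**
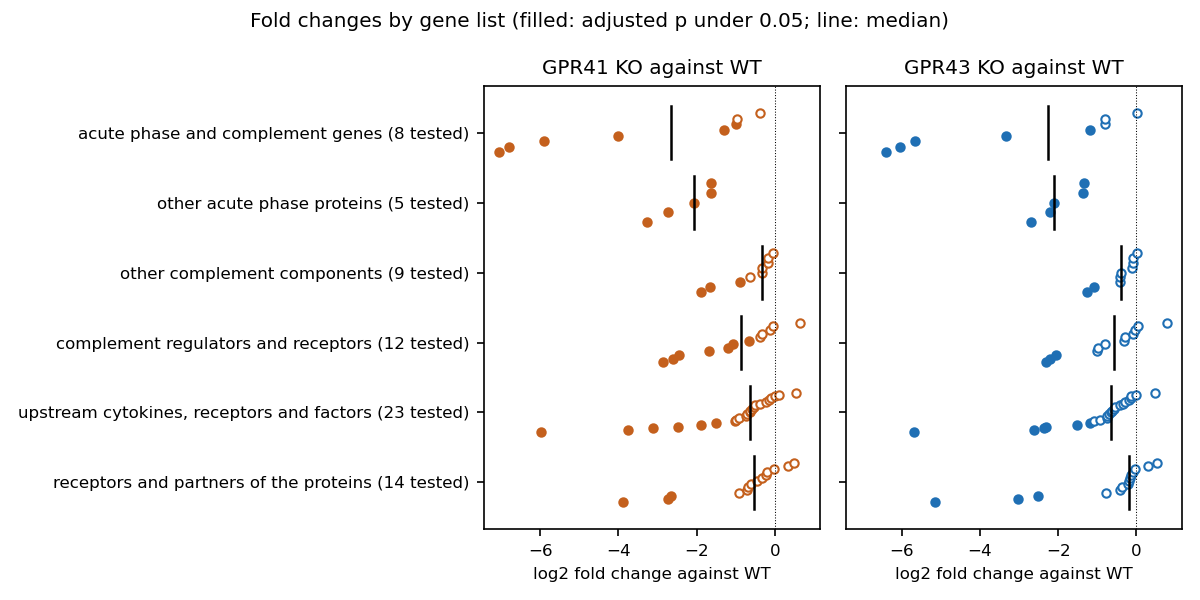
Log2 fold change against WT of each tested gene of 6 lists, GPR41 KO on the left and GPR43 KO on the right; filled points passed an adjusted p of 0.05 in limma and the line is the list's median. The listed acute phase and complement genes have medians of -2.66 and -2.26 and the other complement components -0.33 and -0.40.

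The genes nearest to each in pattern were sought among all tested genes outside the list, by Euclidean distance over the 6 arrays between log2 signals centred on each gene's mean. Nearest to Saa3 were Il1b (distance 1.03), S100a8 (1.10) and Il1r2 (1.43), and nearest to Lcn2 were Il1b (1.09), S100a8 (1.13) and S100a9 (1.5). Hp was nearest to Mmp8 (1.10), Clec4e (1.40) and Il1b (1.44), and Lrg1 to Clec4d (0.463), Cxcl5 (0.678) and Trem1 (0.703). Cp was nearest to Dusp2 (0.567), Cfb to Fabp4 (0.255), Saa2 to Arhgap9 (0.22) and Saa1 to Col5a1 (0.126). Genes that vary little lie close to many others, so distances are not comparable between genes.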

How the data were processed

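Total RNA of colon was amplified, labelled with biotin and hybridised to 1-colour Affymetrix arrays, 1 for each of 6 samples, per the labels. The authors deposited a MAS5 intensity per probe set and array, on a linear scale and already scaled between arrays. The MAS5 version and the genome build are not given in the sources used here. Weak MAS5 signals are mostly background. Probe sets were named from the platform annotation: 34958 of 45101 had 1 symbol, 932 several and 9211 none. Groups came from the sample titles. The probe set with the highest mean log2 signal stood for a gene (18194 genes), and genes above the 40th percentile of mean signal were tested (10916), with log2(signal + 18.4), limma 3.58.1 in R 4.3.3, 1 mean per group, all 6 arrays, an intensity trend, two-sided tests and Benjamini-Hochberg adjustment over all genes, threshold 0.05. The fit had 3 residual degrees of freedom, 8.71 with the shared spread. It was also run on simulated data with independent noise in each array, which cannot give its error rate in these arrays.

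The members and lists were chosen with earlier results of these data known. The members are given with every probe set. Of other lists, the text names genes with the smallest p in either comparison, and preset complement, acute phase and inducer genes; the C1q genes, the terminal pathway genes, Cr1l, Cebpa, Rela, Il22ra1, Cd163, Slc22a17, Cd55, Serping1 and the single cell type markers were named after their values were seen. Promoter windows are the 250 bases before a RefSeq transcript start (GRCm38.p6), found for Saa1, Saa2, Saa3, Cp, Lrg1 and Lcn2. Alternatives covered the pseudocount, scaling, filter, probe set rule, arrays in the fit, trend, a replicate block and leaving out each array.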

Additional observations from a re-analysis of the deposited data

How the results depend on the processing

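Lcn2, Saa3, Hp and Lrg1 kept their direction and stayed past the threshold in both comparisons with WT under every alternative in which they were tested; with the filter at the 60th percentile Hp was not tested. Saa2, Cfb and Cp in those comparisons changed sides of the threshold under some, as given with each gene. The direction of Saa1 in GPR43 KO against WT turned with quantile normalization (-0.097) and the mean over its probe sets (-0.25), and ranged from -0.094 to 0.12 with 1 array left out. With 1 array left out, Cp ranged from -1.73 to 0.11 in GPR43 KO against WT and from -1.80 to 0.040 for the mean of both groups, and in GPR43 KO against GPR41 KO Hp ranged from -1.21 to 0.94, Cp from -0.0090 to 0.31 and Cfb from -0.40 to 0.015.

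Over all genes, 543 changed in GPR41 KO against WT (335 with the filter at the 60th percentile, 195 to 891 with 1 array left out), 432 in GPR43 KO against WT (280 with that filter, 217 without the intensity trend, 129 to 759) and 763 for the mean of both (485 without the trend, 357 to 1007). In GPR43 KO against GPR41 KO the count was 0, with 1 after median centring, 1 with only the 2 groups compared and 0 to 3 with 1 array left out. Of the 5 lists of other acute phase, complement, regulator, inducer and partner genes together (no cell type markers), 25 and 19 genes changed in the 2 comparisons with WT (14 and 11 with the filter at the 60th percentile, 16 to 34 and 9 to 24 with 1 array left out). The cause of these differences in count was not tested. Where 1 array of a group was left, the fit takes its spread from the others.

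Whether the replicate numbers pair arrays across groups is not known. The deviations of same-numbered arrays correlated at 0.107, -0.271 and -0.0537 across genes. Values over all genes cannot exclude a shared difference in some of them. Ang4 was higher in replicate 1 in all 3 groups (8879 and 1138 in WT, 38044 and 5056 in GPR41 KO, 50573 and 7178 in GPR43 KO). Muc2 was higher in replicate 1 in GPR43 KO only. With the replicate block, 6 of the 8 genes changed in GPR41 KO and 5 in GPR43 KO, 0 in GPR43 KO against GPR41 KO and 6 for the mean of both, and over all genes 401, 295, 0 and 550.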
